A study of Homo sapiens with 20 samples.

Results

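The ATR-CHK1 checkpoint core genes are 10 genes, ATR, ATRIP, CHEK1, TOPBP1, CLSPN, TIMELESS, TIPIN, WEE1, CDC25A and RPA3, taken from the 58787 genes of the count table by matching Ensembl identifiers to these symbols. All 10 were found, and all 10 had enough counts to be among the 13729 genes tested. Their messenger RNA was followed across 5 groups of IMR-32 libraries. After 24 h in the high dose of Dyngo-4a, TIPIN, RPA3, CDC25A, WEE1 and CLSPN were lower than in DMSO, with log2 fold changes of -0.78 to -0.27, while CHEK1 and TIMELESS were higher. In the combination of Dyngo-4a with prexasertib, CLSPN, TIPIN and CDC25A were lower than in DMSO. Leaving out single libraries could end the calls of CLSPN, CHEK1 and TIMELESS with the high dose and that of TIPIN in the combination. Within replicates 2 and 4 alone, 0 checkpoint genes passed the threshold in the combination. Within replicates 1 and 3 alone, CHEK1 did not rise with the high dose (log2 fold change -0.02). No checkpoint gene passed the threshold with the low dose of Dyngo-4a alone or with prexasertib alone.

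The ATR-CHK1 pathway is the checkpoint that answers stalled DNA replication. Single-stranded DNA at a stalled fork is coated by RPA, which recruits the kinase ATR through its partner ATRIP. TOPBP1 activates ATR, and the fork proteins CLSPN, TIMELESS and TIPIN help ATR to phosphorylate the kinase CHK1, the product of CHEK1. CHK1 then restrains the phosphatase CDC25A and so keeps the cyclin-dependent kinases inhibited, a state that the kinase WEE1 also maintains. Neuroblastoma cells with amplified MYCN are known for high replication stress.

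IMR-32 is an established human neuroblastoma line with amplified MYCN, labelled as wild type and as brain tissue, and it was the single line used, so no result here extends to another line. Adherent cells were treated for 24 h in 5 groups of 4 libraries: a low dose (1 µM) and a high dose (2.26 µM) of Dyngo-4a, 2 nM prexasertib, the combination of both drugs, and the vehicle DMSO. Which doses the combination used is not stated in the sources used here. Prexasertib is an inhibitor of CHK1, while Dyngo-4a inhibits dynamin GTPases, which pinch off membrane vesicles. The comparisons ask how each treatment, and the pair together, moved the messages of the pathway that prexasertib targets. The assay counts reads at the 3′ ends of messages and measures neither protein nor phosphorylation, so CHK1 inhibition itself is not read.

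Library totals ran from 3960885 to 6537843 counts. Of the adrenergic neuroblastoma markers, MYCN measured 1150 to 1970 CPM (library counts scaled to the same total), GATA3 957 to 1290 CPM and HAND2 488 to 867 CPM over all libraries. Markers of 5 other cell types summed to 15.3 to 49.5 CPM, of which COL1A1 made up 14.9 to 47.5 CPM; PTPRC, EPCAM, PECAM1 and ALB ran from 0 to at most 2.26 CPM. By group, the sum over the 5 markers was 15.3 to 27.7 CPM with the high dose, 23.9 to 47.7 CPM in the combination and 30.8 to 37.3 CPM in DMSO. Replicates 1 and 3 stood apart from replicates 2 and 4 in 5 of 5 groups on the second principal component, which held 11.9% of the variance. The labels give a single batch and do not explain this split, so values within each of these subsets stand beside the pooled ones. The share of counts from the nuclear RNA MALAT1 was 2.8% to 3.15% with the high dose, 1.74% to 2.92% in the combination and 0.941% to 1.76% in DMSO. The part of these shifts in the results below was not tested.

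**Figure D1:**
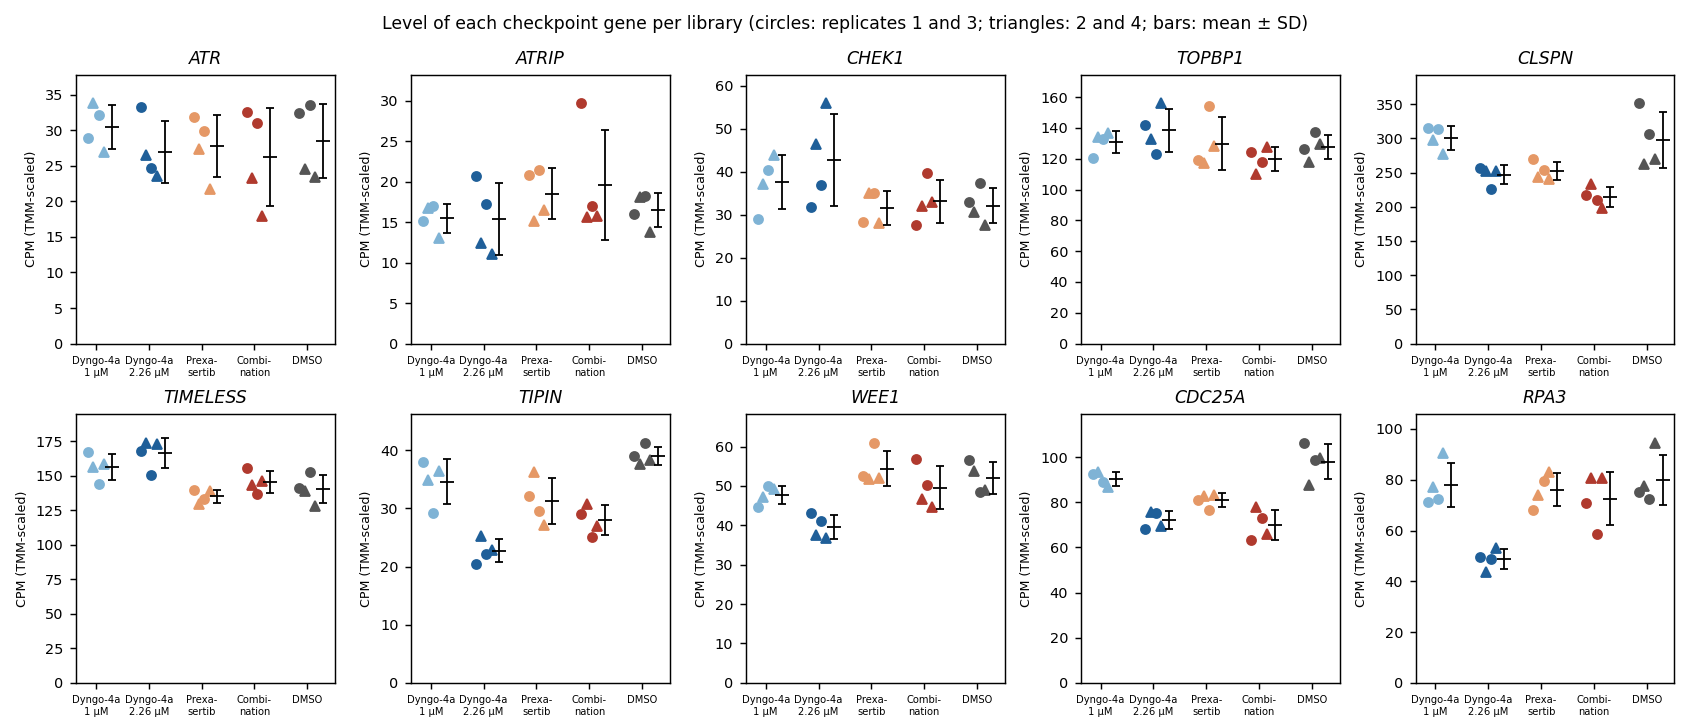
Level of each of the 10 checkpoint genes in CPM (linear axis from 0) in each of the 20 libraries, by group; circles are replicates 1 and 3, triangles replicates 2 and 4, and bars the mean ± SD (n = 4). The high dose libraries of TIPIN, at 20.5 to 25.2 CPM, and of RPA3, at 43.8 to 53.0 CPM, lie below all DMSO libraries, at 37.6 to 41.3 CPM and 72.5 to 94.6 CPM.

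With the high dose of Dyngo-4a, 7 of the 10 checkpoint genes were called, which here means an adjusted p under 0.05 by edgeR's quasi-likelihood test, adjusted after Benjamini and Hochberg over all tested genes. Of these, 5 fell and 2 rose. Across all tested genes 25.2% were called, 12.5% higher and 12.7% lower. The median log2 fold change was -0.19 over the checkpoint genes and 0.00 over all tested genes. The libraries of the high dose and DMSO did not overlap for 5 checkpoint genes, all lower with the high dose, against 23.3% of all tested genes and 11.5% that were lower. These are bulk libraries, in which fewer cells in a cell cycle phase and less RNA per cell cannot be told apart.

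The fork protection pair TIMELESS and TIPIN, whose products bind each other, moved in opposite directions. TIPIN (ENSG00000075131; GRCh38 chr15:66336206-66386746, minus strand) measured 20.5, 25.2, 22.1 and 22.9 CPM in replicates 1 to 4 of the high dose, against 39.0, 37.6, 41.3 and 38.3 CPM in DMSO. Every high dose library lay below every DMSO library. TIPIN fell to 0.581 times its DMSO level, a log2 fold change of -0.78 ± 0.12 (SE; edgeR adjusted p = 9.47e-06). The fall was -0.90 within replicates 1 and 3 (edgeR adjusted p = 0.000196) and -0.67 within replicates 2 and 4 (edgeR adjusted p = 0.0135). TIMELESS (ENSG00000111602; chr12:56416373-56449403, minus strand) measured 168, 174, 151 and 173 CPM with the high dose, against 141, 139, 153 and 128 CPM in DMSO. The groups overlapped, because replicate 3 was the lowest high dose library and the highest DMSO library. TIMELESS rose by 0.25 ± 0.08 on the log2 scale (edgeR adjusted p = 0.0294). The call was lost in 5 of 8 fits that left out 1 library (replicates 1, 2 and 4 of the high dose, and replicates 2 and 4 of DMSO), with adjusted p up to 0.0962, and the change was 0.12 within replicates 1 and 3 and 0.36 within replicates 2 and 4.

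RPA3, the smallest subunit of the single-strand binding complex RPA, was the other gene with a large fall. RPA3 (ENSG00000106399; chr7:7636518-7718607, minus strand) measured 49.7, 43.8, 48.6 and 53.0 CPM with the high dose, against 75.0, 77.5, 72.5 and 94.6 CPM in DMSO. The groups did not overlap. RPA3 fell to 0.609 times its DMSO level (log2 fold change -0.72 ± 0.11; edgeR adjusted p = 8.95e-06), by -0.58 within replicates 1 and 3 and by -0.85 within replicates 2 and 4. The larger subunits RPA1 and RPA2, in the list of other pathway genes described below, were not called with the high dose, at -0.30 ± 0.12 for RPA1 (edgeR adjusted p = 0.0553) and -0.03 ± 0.12 for RPA2 (edgeR adjusted p = 0.898). Exons of RPA3 overlap those of UMAD1 on the opposite strand, which held 849 counts over all libraries against 7504 for RPA3. UMAD1 begins at chr7:7640711 and does not cover the annotated 3′ end of RPA3. The strand setting is not stated in the sources used here, so some reads at this locus may have been credited to either gene.

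The cell cycle targets of the checkpoint, CDC25A and WEE1, both fell. CDC25A (ENSG00000164045; chr3:48157146-48188402, minus strand), the phosphatase that activates cyclin-dependent kinases, measured 68.0, 75.5, 75.4 and 69.4 CPM with the high dose, against 106, 87.5, 98.5 and 99.4 CPM in DMSO. Its log2 fold change was -0.44 ± 0.09 (edgeR adjusted p = 0.000367), with -0.51 within replicates 1 and 3 and -0.38 within replicates 2 and 4 (edgeR adjusted p = 0.0523 in the second subset). WEE1 (ENSG00000166483; chr11:9573681-9593457, plus strand), the kinase that opposes CDC25A, measured 43.2, 37.5, 41.0 and 36.9 CPM with the high dose, against 56.7, 53.9, 48.4 and 49.1 CPM in DMSO. Its log2 fold change was -0.39 ± 0.11 (edgeR adjusted p = 0.00553), with -0.31 within replicates 1 and 3 (edgeR adjusted p = 0.146) and -0.48 within replicates 2 and 4. Neither gene's libraries overlapped between the groups. TIPIN, RPA3, CDC25A and WEE1 kept their calls in all 8 fits that left out 1 library of these groups.

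The mediator CLSPN and the kinase gene CHEK1 had calls that rested on single libraries. CLSPN (ENSG00000092853; chr1:35720218-35769967, minus strand), which encodes Claspin, the adaptor that brings CHK1 to ATR, measured 257, 252, 226 and 253 CPM with the high dose, against 351, 263, 307 and 269 CPM in DMSO. The groups did not overlap, and the highest high dose library lay just under the lowest DMSO library. CLSPN fell by 0.27 ± 0.09 on the log2 scale (edgeR adjusted p = 0.0245). The call was lost without replicate 3 of the high dose, replicate 1 of DMSO or replicate 3 of DMSO, with adjusted p up to 0.171. The change was -0.44 within replicates 1 and 3 (edgeR adjusted p = 0.000953) and -0.09 within replicates 2 and 4 (edgeR adjusted p = 0.664).

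CHEK1 (ENSG00000149554; chr11:125625136-125676255, plus strand) measured 31.7, 46.5, 36.8 and 55.9 CPM with the high dose, against 32.9, 30.6, 37.3 and 27.5 CPM in DMSO. Replicates 2 and 4 of the high dose lay above every DMSO library, and replicates 1 and 3 lay within the DMSO range. The pooled log2 fold change was 0.42 ± 0.15 (edgeR adjusted p = 0.0389). It was 0.81 ± 0.18 within replicates 2 and 4 (edgeR adjusted p = 0.00232) and -0.02 ± 0.18 within replicates 1 and 3 (edgeR adjusted p = 0.954), so the rise did not hold within both subsets. The call was lost in 5 of 8 fits that left out 1 library (replicates 2 and 4 of the high dose, and replicates 1, 2 and 4 of DMSO), with adjusted p up to 0.22. At its start CHEK1 shares exon sequence with the 3′ end of STT3A on the same strand (STT3A ends at chr11:125625215), and STT3A held 3908 counts over all libraries against 3723 for CHEK1, so reads in the overlap could have been credited to either gene. The 3′ end of CHEK1 lies within ACRV1 on the opposite strand, a gene that had 0 counts in every library.

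**Figure D2:**
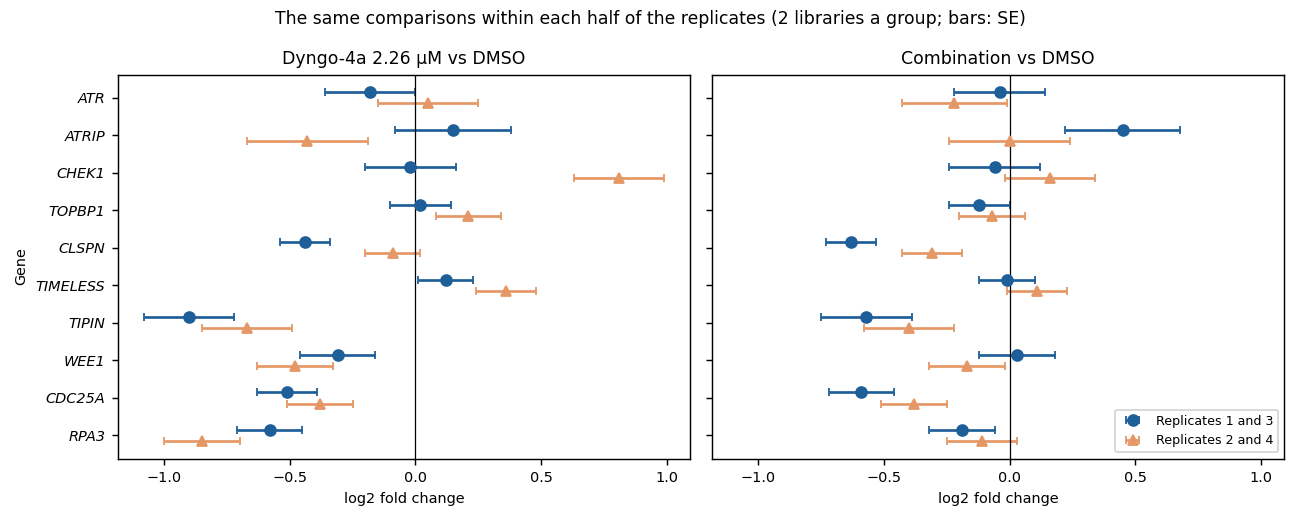
Log2 fold change against DMSO within replicates 1 and 3 and within replicates 2 and 4 for the checkpoint genes, with SE as bars, for the high dose and for the combination. TIPIN lies below 0 in both subsets of both comparisons, while CHEK1 with the high dose lies at -0.02 in one subset and 0.81 in the other.

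The upstream kinase genes gave no call with the high dose. ATR (ENSG00000175054; chr3:142449235-142578826, minus strand) had 33.3, 26.5, 24.7 and 23.6 CPM with the high dose, against 32.4, 24.6, 33.5 and 23.5 CPM in DMSO, a log2 fold change of -0.08 ± 0.16 (edgeR adjusted p = 0.777). Its partner ATRIP (ENSG00000164053; chr3:48446710-48467645, plus strand) averaged 15.4 ± 4.44 CPM with the high dose and 16.5 ± 2.12 CPM in DMSO (SD, n = 4 each). ATRIP shares its 3′ end with TREX1 on the same strand, and TREX1 had 0 counts in every library while ATRIP had 1771 in all. The ATRIP values may therefore include TREX1 reads or lack reads from the shared end, and which of these holds was not tested. TOPBP1 (ENSG00000163781; chr3:133598175-133662380, minus strand), the activator of ATR, averaged 138.5 ± 13.9 CPM with the high dose and 127.7 ± 8.05 CPM in DMSO (SD, n = 4 each; log2 fold change 0.12 ± 0.10, edgeR adjusted p = 0.403). An adjusted p above the threshold does not show that these levels were equal.

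**Figure D3:**
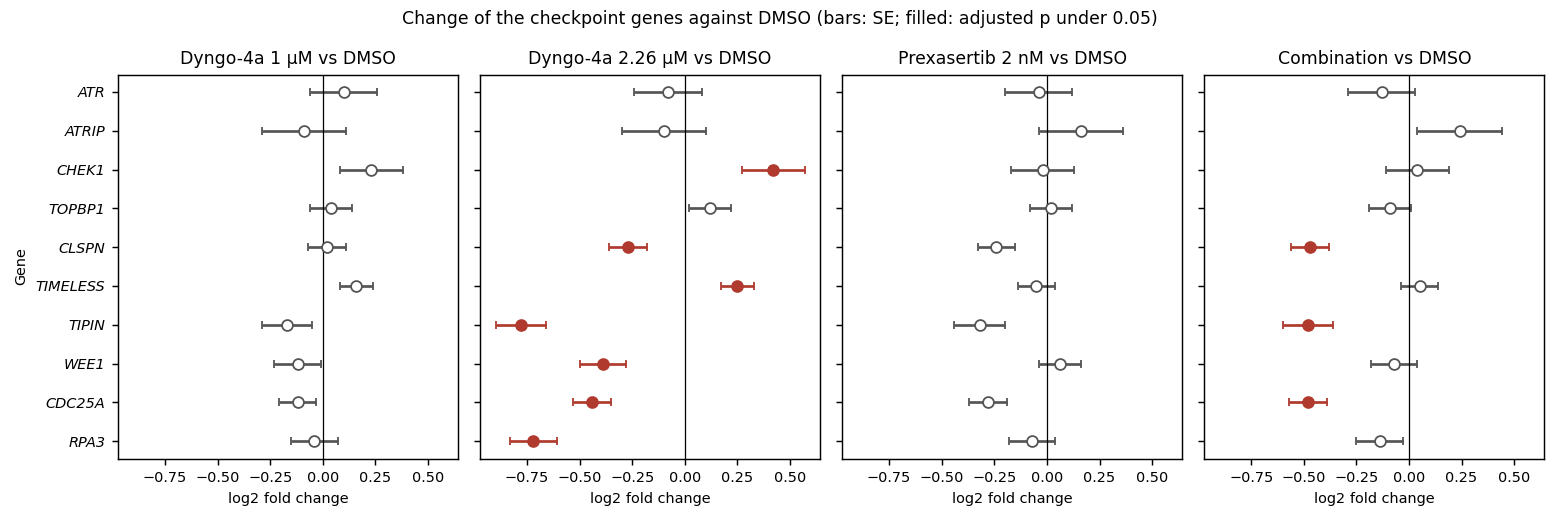
Log2 fold change of each checkpoint gene against DMSO in each of the 4 treated groups, with SE as bars; filled points have an adjusted p under 0.05. The high dose has 7 filled points and the combination 3, and neither the low dose nor prexasertib has any.

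In the combination, 3 of the 10 checkpoint genes were called, all lower than in DMSO. Across all tested genes 6.3% were called, 3.47% higher and 2.83% lower. CLSPN measured 217, 233, 209 and 198 CPM in the combination, against 351, 263, 307 and 269 CPM in DMSO. It fell to 0.721 times its DMSO level (log2 fold change -0.47 ± 0.09; edgeR adjusted p = 0.000528). CDC25A measured 63.5, 78.0, 72.9 and 66.0 CPM in the combination, against 106, 87.5, 98.5 and 99.4 CPM in DMSO, a log2 fold change of -0.48 ± 0.09 (edgeR adjusted p = 0.000494). TIPIN measured 29.1, 30.8, 25.0 and 27.0 CPM in the combination, against 39.0, 37.6, 41.3 and 38.3 CPM in DMSO, a log2 fold change of -0.48 ± 0.12 (edgeR adjusted p = 0.0114). All 3 genes had no overlap between the libraries of the combination and DMSO, which held for 10.9% of all tested genes, with 5.23% lower.

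The falls of CLSPN and CDC25A in the combination kept their calls in all 8 fits that left out 1 library, and that of TIPIN was lost without replicate 3 of the combination (edgeR adjusted p = 0.0579). Within replicates 1 and 3 the log2 fold changes were -0.63 for CLSPN, -0.57 for TIPIN and -0.59 for CDC25A, each past the threshold. Within replicates 2 and 4 they were -0.31, -0.40 and -0.38 for the same genes in that order, with edgeR adjusted p = 0.23, 0.351 and 0.188. RPA3, which fell with the high dose, measured 70.8, 80.6, 58.6 and 80.5 CPM in the combination and was not called (log2 fold change against DMSO -0.14 ± 0.11, edgeR adjusted p = 0.54). WEE1 had 56.8, 46.7, 50.2 and 44.6 CPM in the combination (-0.07 ± 0.11, edgeR adjusted p = 0.764). CHEK1 had 27.7, 31.9, 39.7 and 33.0 CPM, a log2 fold change of 0.04 ± 0.15 (edgeR adjusted p = 0.906), and TIMELESS differed from DMSO by 0.05 ± 0.09. The comparisons of the high dose and of the combination share the 4 DMSO libraries.

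CLSPN, CDC25A and TIPIN were called lower in both comparisons, and their promoters are shown here. That of CHEK1 is added because its product is the target of prexasertib, although its rise did not hold within both subsets of replicates. The windows run from 250 bases before to 50 bases after the start of the gene in RefSeq (GRCh38.p14), 5′ to 3′ on the gene's strand. Capitals mark E2F-type letters, TTCCCGC or TTGGCGC on either strand; E2F factors are known regulators of S phase genes. The windows are chr1:35769929-35770228 for CLSPN, chr3:48188368-48188667 for CDC25A and chr15:66386668-66386967 for TIPIN, all on the minus strand, and chr11:125625979-125626278 on the plus strand for CHEK1, the first of 3 windows listed for that gene.
CLSPN: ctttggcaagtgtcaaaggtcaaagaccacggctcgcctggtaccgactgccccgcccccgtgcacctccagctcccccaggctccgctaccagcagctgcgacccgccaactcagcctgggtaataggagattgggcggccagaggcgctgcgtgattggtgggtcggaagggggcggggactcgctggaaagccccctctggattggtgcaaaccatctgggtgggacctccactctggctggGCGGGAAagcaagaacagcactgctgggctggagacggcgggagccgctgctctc
CDC25A: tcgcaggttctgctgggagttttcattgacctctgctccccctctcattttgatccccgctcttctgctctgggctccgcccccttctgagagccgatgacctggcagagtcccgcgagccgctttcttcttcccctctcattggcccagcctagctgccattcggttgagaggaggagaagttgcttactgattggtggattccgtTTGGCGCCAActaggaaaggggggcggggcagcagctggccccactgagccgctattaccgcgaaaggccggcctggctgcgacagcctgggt
TIPIN: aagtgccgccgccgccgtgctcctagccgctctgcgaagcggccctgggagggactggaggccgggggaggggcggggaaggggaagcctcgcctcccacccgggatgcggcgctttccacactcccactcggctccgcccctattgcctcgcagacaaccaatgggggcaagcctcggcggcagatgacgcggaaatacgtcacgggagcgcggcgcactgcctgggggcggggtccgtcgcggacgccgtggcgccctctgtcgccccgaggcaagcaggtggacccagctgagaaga
CHEK1: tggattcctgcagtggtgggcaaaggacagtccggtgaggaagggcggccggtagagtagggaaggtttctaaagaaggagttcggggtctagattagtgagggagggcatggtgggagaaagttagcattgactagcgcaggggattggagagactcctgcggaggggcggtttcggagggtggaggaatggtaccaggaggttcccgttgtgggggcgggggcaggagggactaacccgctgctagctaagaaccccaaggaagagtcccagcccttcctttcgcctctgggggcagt

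RefSeq windows were matched for 8 of the 10 genes, without WEE1 and RPA3. E2F-type letters were found in 3 of these 8, namely CLSPN, CDC25A and TOPBP1, and in 9.23% of the 35116 windows of the same length. In CDC25A the 10 capital letters hold TTGGCGC on both strands, overlapping each other. The letters CCAAT, on either strand, were in 6 of the 8 windows and in 34.6% of all windows, 3 times in CLSPN, 2 times in CDC25A and 1 time each in TIPIN and CHEK1. The letters TTTGAA, on either strand, known as the CHR element of late cell cycle genes, were in 0 of the 8 and in 15.2% of all windows. Neither TIPIN, which fell in both comparisons, nor CHEK1 holds the E2F-type letters in the window shown. The table lists 2 windows for TIPIN and 3 for CHEK1, and the others are not described here. The CHEK1 window begins at chr11:125625979, inside the gene as placed above, which starts at chr11:125625136. The window shown thus does not cover the sequence before that start. A match describes letters only and is no evidence that a factor binds there.

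The low dose of Dyngo-4a alone called 0 of the 10 checkpoint genes, where 0.262% of all tested genes were called, 36 genes, or 260 in the fit blocked by replicate number. At an unadjusted p under 0.05 the edgeR count was also 0, where 7.57% of all tested genes had such a p, and DESeq2 called 0. TIPIN measured 38.0, 34.9, 29.2 and 36.5 CPM with the low dose, overlapping the 37.6 to 41.3 CPM of DMSO (log2 fold change -0.17 ± 0.12, edgeR adjusted p = 0.803). CHEK1 had 28.9, 37.1, 40.5 and 43.8 CPM with the low dose, and its 0.23 ± 0.15 on the log2 scale was the largest difference in size among the 10 (edgeR adjusted p = 0.792). The remaining genes differed from DMSO by -0.12 to 0.16 on the log2 scale.

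Prexasertib alone also called 0 of the 10, and edgeR called 0% of all tested genes in that comparison. With the replicate number as a block it called 23 genes, 15 higher and 8 lower, and still 0 checkpoint genes. DESeq2 called 6 genes in all and 0 checkpoint genes. CDC25A, CLSPN and TIPIN were the 3 checkpoint genes with an unadjusted p under 0.05, where 3.77% of all tested genes had one. CDC25A measured 81.2, 82.9, 76.7 and 83.2 CPM with prexasertib, all below the 87.5 to 106 CPM of DMSO (log2 fold change -0.28 ± 0.09, edgeR adjusted p = 1.0). TIPIN measured 32.1, 36.3, 29.5 and 27.1 CPM with prexasertib, also without overlap with DMSO (-0.32 ± 0.12, edgeR adjusted p = 1.0). Non-overlap of this kind was found for 2 checkpoint genes and for 2.94% of all tested genes, with 1.46% lower. CLSPN measured 269.5, 244, 254 and 240.3 CPM with prexasertib, with replicate 1 inside the DMSO range (-0.24 ± 0.09, edgeR adjusted p = 1.0). The gene for the drug's own target, CHEK1, had 28.4, 35.0, 35.1 and 28.0 CPM with prexasertib, against 32.9, 30.6, 37.3 and 27.5 CPM in DMSO. Its log2 fold change was -0.02 ± 0.15.

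Between the high and the low dose of Dyngo-4a, 4 of the 10 checkpoint genes were called, all lower with the high dose, against 20.2% of all tested genes and 10.1% called lower. RPA3 averaged 48.8 ± 3.81 CPM with the high dose and 77.9 ± 8.76 CPM with the low dose (SD, n = 4 each; log2 fold change -0.68 ± 0.11, edgeR adjusted p = 3.23e-05). TIPIN averaged 22.7 ± 1.96 CPM with the high dose and 34.6 ± 3.85 CPM with the low dose (-0.61 ± 0.12, edgeR adjusted p = 0.000464). For these 2 genes the fall also passed within replicates 1 and 3 (-0.53 for RPA3 and -0.64 for TIPIN) and within replicates 2 and 4 (-0.80 and -0.58 in the same order). CDC25A differed by -0.33 ± 0.09 (edgeR adjusted p = 0.00972), with -0.32 within replicates 1 and 3 (edgeR adjusted p = 0.0931) and -0.33 within replicates 2 and 4 (edgeR adjusted p = 0.119).

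CLSPN differed between the doses by -0.29 ± 0.09 (edgeR adjusted p = 0.0209), with -0.36 within replicates 1 and 3 and -0.20 within replicates 2 and 4 (edgeR adjusted p = 0.284). The call was lost without replicate 1 or 3 of the low dose or replicate 3 of the high dose, with adjusted p up to 0.0802. WEE1 averaged 39.6 ± 2.98 CPM with the high dose and 47.7 ± 2.35 CPM with the low dose (SD, n = 4 each) and missed the threshold (edgeR adjusted p = 0.07). Its libraries did not overlap between the doses, and neither did those of the 4 called genes, against 21.0% of all tested genes. With the replicate number as a block WEE1 passed it (edgeR adjusted p = 0.0312). CHEK1 did not differ past the threshold between the doses (0.18 ± 0.15, edgeR adjusted p = 0.425).

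The combination was also set against each drug alone, at single-drug doses that may not be those inside it. Against the low dose, 2 of the 10 were called, both lower in the combination, where 3.85% of all tested genes were called and 1.14% were lower. Over all tested genes these were 371 higher and 157 lower, 329 higher and 256 lower when scaled by library sizes alone, and 609 higher and 540 lower in the fit blocked by replicate number. CLSPN averaged 214.5 ± 14.8 CPM in the combination and 301 ± 17.5 CPM with the low dose (SD, n = 4 each; log2 fold change -0.49 ± 0.09, edgeR adjusted p = 0.000415), with -0.55 within replicates 1 and 3 and -0.42 within replicates 2 and 4 (edgeR adjusted p = 0.0948). CDC25A averaged 70.1 ± 6.62 CPM in the combination and 90.4 ± 3.11 CPM with the low dose (-0.37 ± 0.09, edgeR adjusted p = 0.014), with -0.40 within replicates 1 and 3 (edgeR adjusted p = 0.0638) and -0.33 within replicates 2 and 4 (edgeR adjusted p = 0.427). The CDC25A call was lost without replicate 2 of the low dose, or without replicate 1 or 4 of the combination, with adjusted p up to 0.0814.

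Against prexasertib alone, 0 of the 10 were called by edgeR and by DESeq2, where edgeR called 3.44% of all tested genes, 472 genes, or 1374 in the fit blocked by replicate number. CLSPN and CDC25A were the 2 with an unadjusted p under 0.05, which 15.7% of all tested genes had. CLSPN libraries did not overlap, at 198 to 233 CPM in the combination against 240.3 to 269.5 CPM with prexasertib, as for 9.86% of all tested genes (-0.23 ± 0.09, edgeR adjusted p = 0.168). With the replicate number as a block CLSPN passed the threshold (edgeR adjusted p = 0.0211). The interaction asks whether the change in the combination differed from the sum of the prexasertib and low dose changes on the log2 scale. The high dose did not enter it, and the low dose may not be the dose inside the combination. The interaction called 0 of the 10 with edgeR and with DESeq2. The edgeR count at an unadjusted p under 0.05 was 0 as well, against 6.56% of all tested genes, and 0.284% of all tested genes were called. The largest interaction in size was that of CLSPN, at -0.25 ± 0.13 (edgeR adjusted p = 0.778).

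Placed in order of mean level, most neighbouring groups of each checkpoint gene had overlapping libraries. The neighbours that did not overlap were the low and high doses for WEE1, the low dose and prexasertib for CDC25A, prexasertib and the high dose for CDC25A, and the combination and the high dose for RPA3. Between the low and high doses 21.0% of all tested genes did not overlap. For the other pairs this share was not computed, so how common such a separation is there cannot be said. For TIPIN the mean levels, from the lowest up, were 22.7 CPM with the high dose, 28.0 in the combination, 31.3 with prexasertib, 34.6 with the low dose and 39.0 CPM in DMSO. For CDC25A they were 70.1 CPM in the combination, 72.1 with the high dose, 81.0 with prexasertib, 90.4 with the low dose and 98.0 CPM in DMSO. For CLSPN the combination (214.5 CPM), the high dose (247 CPM) and prexasertib (252 CPM) lay below the low dose (301 CPM) and DMSO (298 CPM).

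ATR, ATRIP and TOPBP1 had no call in any comparison. ATR averaged 30.5 ± 3.12 CPM with the low dose, 27.0 ± 4.36 with the high dose, 27.8 ± 4.39 with prexasertib, 26.2 ± 6.88 in the combination and 28.5 ± 5.15 CPM in DMSO (SD, n = 4 each). ATRIP averaged 15.5 ± 1.8 CPM with the low dose, 15.4 ± 4.44 with the high dose, 18.5 ± 3.15 with prexasertib, 19.6 ± 6.82 in the combination and 16.5 ± 2.12 CPM in DMSO. TOPBP1 averaged 131 ± 7.19 CPM with the low dose, 138.5 ± 13.9 with the high dose, 129.9 ± 17.1 with prexasertib, 120.0 ± 7.68 in the combination and 127.7 ± 8.05 CPM in DMSO. The libraries of neighbouring groups overlapped throughout for these 3 genes, and TIMELESS, at 156.5 ± 9.51 CPM with the low dose and 135 ± 4.82 CPM with prexasertib, also had no neighbours apart.

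Across the 20 libraries, Pearson's r of log2 CPM between checkpoint genes was highest for CLSPN with CDC25A (0.83), TIPIN with CDC25A (0.80) and TIPIN with RPA3 (0.72), and lowest for TIMELESS with WEE1 (-0.70). These values pool 5 groups, so differences between groups enter them, and no test is given. Among 9664 genes with enough signal, the gene most like each checkpoint gene was FEN1 for CDC25A (0.91), PRMT6 for RPA3 (0.93), NGFR for TIPIN (0.90) and KNOP1 for CLSPN (0.85). It was EWSR1 for WEE1 (0.87), PLCB1 for TIMELESS (0.86), DOCK5 for ATR (0.84), NSD1 for ATRIP (0.81) and PACC1 for TOPBP1 (0.74). For CHEK1 the 3 most alike were PXK (0.82), NNT (0.78) and RPL4P4 (0.77), the last a pseudogene whose reads may come from its parent gene.

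The rest of the pathway was followed with a list of 23 other genes, of which 22 were tested. With the high dose 4 rose and 4 fell, with a median log2 fold change of -0.07, where 12.5% of all tested genes were called higher and 12.7% lower. PPM1D, a phosphatase known to reverse checkpoint signals, averaged 70.9 ± 5.26 CPM with the high dose and 43.1 ± 9.83 CPM in DMSO (SD, n = 4 each; log2 fold change 0.72 ± 0.12, edgeR adjusted p = 3.43e-05). HUS1, part of the 9-1-1 clamp at stalled forks, averaged 26.2 ± 3.39 CPM with the high dose and 16.1 ± 2.37 CPM in DMSO (0.69 ± 0.16, edgeR adjusted p = 0.00131). FBXW11, which targets CDC25A for degradation, rose by 0.43 ± 0.12, and the clamp loader gene RFC4 by 0.26 ± 0.10. The RFC4 call (edgeR adjusted p = 0.0493) was lost in 7 of 8 fits that left out 1 library, all but that without replicate 1 of the high dose, with adjusted p up to 0.123.

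The 4 that fell with the high dose were CDK2, a kinase that CDC25A activates, ETAA1, the other known activator of ATR, the clamp loader gene RFC3 and the phosphatase gene CDC25B. CDK2 averaged 156 ± 30.3 CPM with the high dose and 243 ± 15.4 CPM in DMSO (SD, n = 4 each; -0.64 ± 0.11, edgeR adjusted p = 7.07e-05). The log2 fold changes were -0.44 ± 0.10 for ETAA1, -0.38 ± 0.10 for RFC3 and -0.36 ± 0.10 for CDC25B. Apart from RFC4, each of these 8 genes kept its call in all 8 fits that left out 1 library and kept its sign within both subsets of replicates.

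In the combination 3 of the other pathway genes rose and 3 fell, with a median of -0.14, where 3.47% of all tested genes were called higher and 2.83% lower. PPM1D averaged 95.7 ± 7.14 CPM in the combination and 43.1 ± 9.83 CPM in DMSO (SD, n = 4 each; 1.15 ± 0.12, edgeR adjusted p = 1.06e-08). It was also the only one of the 22 tested called in the interaction (0.92 ± 0.18, edgeR adjusted p = 0.0047). Within replicates 1 and 3 and within replicates 2 and 4 the interaction was 0.74 and 1.08, without a call in either. The Dyngo-4a arm of the interaction was the low dose, and none was fitted with the high dose. PPM1D changed by 0.08 ± 0.13 with the low dose, 0.72 ± 0.12 with the high dose and 0.14 ± 0.13 with prexasertib. CDC25C, a phosphatase that opens mitosis, rose by 0.66 ± 0.14, and the mitotic kinase gene CDK1 by 0.40 ± 0.10. The clamp loader gene RFC5 fell by 0.48 ± 0.11, CDK2 by 0.42 ± 0.11 and PKMYT1, a relative of WEE1, by 0.33 ± 0.10. The CDK2 call was lost without replicate 1 or 3 of the combination or replicate 2 of DMSO (edgeR adjusted p up to 0.0736), and that of PKMYT1 in 7 of 8 such fits, all but that without replicate 3 of DMSO (up to 0.145). The low dose and prexasertib alone called 0 of the 22 with edgeR, and 2 of them with the low dose and 3 with prexasertib had an unadjusted p under 0.05, against 7.57% and 3.77% of all tested genes in the same order.

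Genes of S phase and of mitosis were counted beside the checkpoint genes as a reading of the cell cycle. Of 15 S phase genes, such as MCM2 and FEN1, 14 fell with the high dose (median log2 fold change -0.54) and 13 in the combination (median -0.56), where 12.7% and 2.83% of all tested genes were called lower. The low dose (median -0.14) and prexasertib (median -0.20, with 15 of 15 negative) called 0 of the 15; 4 and 5 of them, in that order, had an unadjusted p under 0.05, and DESeq2 called 0 in both. In the fit blocked by replicate number 2 and 3 were called, all lower. Their summed level was 2020 to 2230 CPM with the low dose, 1640 to 1710 CPM with the high dose, 1870 to 2050 CPM with prexasertib, 1490 to 1780 CPM in the combination and 2150 to 2420 CPM in DMSO. The low dose overlapped DMSO, and the high dose, prexasertib and the combination did not. How often sums over other lists of this size separate was not computed, so how common such a separation is cannot be said. Of 10 genes of G2 and mitosis, 3 fell with the high dose (median -0.18), a count that was 1 without replicate 2 or 3 of the high dose or replicate 2 or 4 of DMSO. In the combination 6 of the 10 rose (median 0.33), against 3.47% of all tested genes called higher, and 3 rose without replicate 1 of the combination or replicate 1 of DMSO. The summed level of the 10 was 6350 to 7630 CPM with the high dose, overlapping the 6220 to 7030 CPM of DMSO. It was 5860 to 6610 CPM with the low dose, 7000 to 8110 CPM with prexasertib and 8340 to 10100 CPM in the combination. The low dose (median -0.23) and prexasertib (median 0.14) called 0 of these 10 with edgeR, with 6 and 1 at an unadjusted p under 0.05 in that order; in the fit blocked by replicate number 1 was lower with the low dose and 1 higher with prexasertib, and DESeq2 called 0 and 1. The median over the 10 checkpoint genes was -0.19 with the high dose and -0.11 in the combination. The part of cell cycle phase in the falls of CLSPN, CDC25A and TIPIN was not tested.

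**Figure D4:**
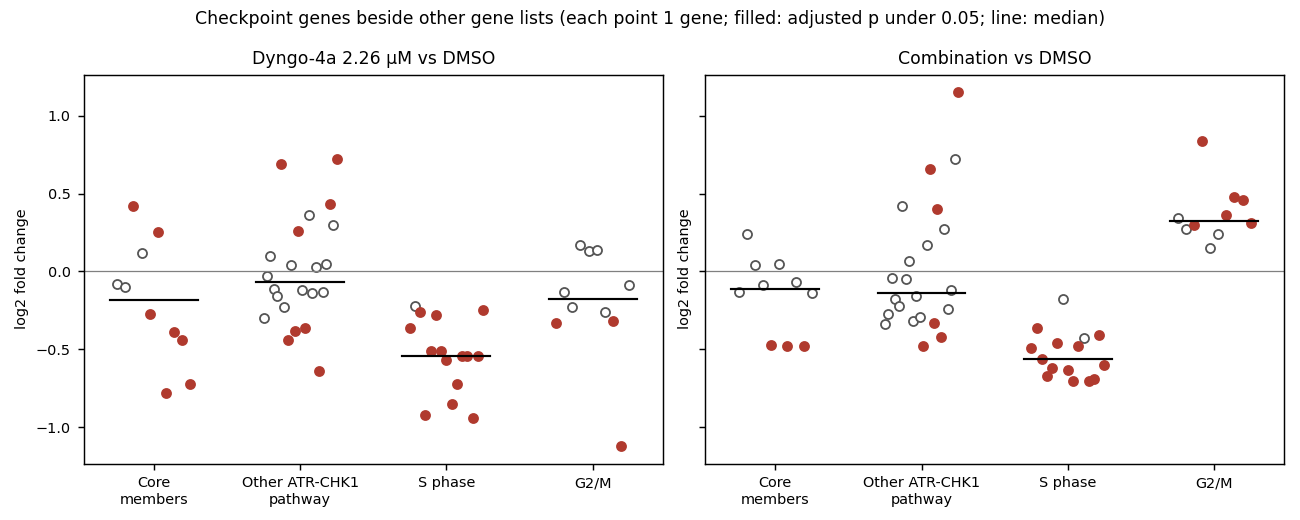
Log2 fold change against DMSO of each tested gene in 4 lists, for the high dose and for the combination. The lists are the checkpoint core, the other pathway genes, the S phase genes and the genes of G2 and mitosis. Each point is a gene, filled where the adjusted p is under 0.05, and the bar is the list's median. The S phase medians lie at -0.54 with the high dose and -0.56 in the combination, and the medians of G2 and mitosis at -0.18 and 0.33.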

How the data were processed

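The 20 libraries were made with a 3′ mRNA kit with molecular barcodes, per the labels' protocols. The deposited values are raw counts per gene, not normalized by the authors. Per the submitters' processing notes the genome build was GRCh38, and the tools were STAR 2.7.2b, FastQC 0.11.7, limma 3.50.3 and edgeR 3.36.0. The annotation release, the strand setting and any collapsing of barcodes are not stated in the sources used here, so counts may not be independent molecules. Symbols came from a gene table (58434 of 58787 identifiers) and coordinates from GENCODE 29 (58515 identifiers).

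Groups came from the labels. The labels do not say that a group's libraries are separate cultures; p-values therefore measure only the spread between these libraries, which may be technical. No library was a copy of another (chi-square per degree of freedom 3.07 to 8.84 between libraries of a group). A count of 0 allows 3 counts, 0.459 to 0.757 CPM by library; such floors cover counting error only.

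With filterByExpr (minimum count 10, minimum total 15) 13729 genes remained, holding 99.6% to 99.8% of each library's counts. One edgeR 4.0.16 model (R 4.3.3; TMM factors 0.968 to 1.03, robust quasi-likelihood F-test, two-sided) was fitted to all libraries, and p-values were adjusted by Benjamini-Hochberg within each of 8 comparisons (threshold 0.05). Log2 fold changes are given ± SE. The steps were tested on simulated data. Alternatives were other scalings, no low-count filter, DESeq2 1.42.0, fits of only the compared groups, a block for the replicate number, and leaving out each library; the term for, and the fits within, replicates 1 and 3 and replicates 2 and 4 were added after seeing the data.

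The checkpoint genes, the gene lists and the tests were chosen with earlier results of these data known. All 10 checkpoint genes were described in each comparison; other pathway genes were named where called against DMSO or in the interaction, and like genes by the highest Pearson r of log2 CPM (prior count 2). RPA1, RPA2, MCM2 and FEN1 in the lists, UMAD1, TREX1, STT3A and ACRV1 as overlapping genes, and MALAT1 are named as background. Some marker results are not reported here.

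Replicate numbers were taken to pair libraries where all correlations between same-numbered libraries, as deviations from their group means, exceeded 0.1. This was so for prexasertib (0.157 to 0.213), the low dose (0.144 to 0.237), the high against the low dose (0.11 to 0.298), and the combination against prexasertib (0.115 to 0.23) and against the low dose (0.144 to 0.294). For these comparisons, blocked values stand beside the counts and calls that they change.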

Additional observations from a re-analysis of the deposited data

Results flagged for a closer look

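In each of the 50 sets of 4 libraries formed by a checkpoint gene and a group, the gap of the highest or lowest library to the nearest other was divided by the range; the sets below passed Dixon's critical value for 4 values, which chance alone gives in about 1 set in 20. ATRIP in the combination had replicate 1 at 29.7 CPM and the other libraries at 15.7 to 17.0 CPM (ratio 0.904). WEE1 with prexasertib had replicate 3 at 61.0 CPM and the others at 51.8 to 52.6 CPM (ratio 0.913). CLSPN with the high dose had replicate 3 at 226 CPM and the others at 252 to 257 CPM (ratio 0.843), and it is 1 of the 3 libraries whose removal ended the CLSPN call against DMSO.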

How the results depend on the processing

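Of 1440 refitted log2 fold changes of the checkpoint genes, 1397 kept their side of the threshold and, where called, their sign; 39 lost the call, 3 gained one and 1 reversed, that of CHEK1 with the high dose (-0.02 within replicates 1 and 3). Among uncalled values 79 changed sign. Leaving out 1 library gave 5 to 6 called checkpoint genes with the high dose, 2 to 3 in the combination, 3 to 4 between the doses of Dyngo-4a, 1 to 2 for the combination against the low dose, and 0 in the other comparisons. Within replicates 1 and 3 the high dose called 4 checkpoint genes, and the combination against the low dose 1. Within replicates 2 and 4 the combination called 0 against DMSO and 0 against the low dose, and the high against the low dose 2. These subsets have fewer libraries. With no low-count filter the high against the low dose called 2, and CLSPN and TIMELESS lost their calls with the high dose (adjusted p = 0.0639 and 0.105), as they did with the compared groups alone (0.0588 and 0.0646); the cause was not tested.

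With the replicate number as a block, the combination against prexasertib called 1 checkpoint gene, CLSPN, and WEE1 was gained between the doses; it changed no other call among the checkpoint genes. For the high dose, the combination against DMSO and the interaction the lowest same-number correlations were 0.0271, 0.0274 and 0.0274, with 5 of 8, 6 of 8 and 42 of 48 library checks correlating best with their own number. All-gene counts under the block were 260 against 36 for the low dose, 23 against 0 for prexasertib, 1976 against 865 for the combination, 1374 against 472 for the combination against prexasertib, 1149 against 528 against the low dose, and 167 against 39 for the interaction. Other pathway genes called in the combination numbered 13 with the block against 6 without it, and 3 against 1 in the interaction. Genes of G2 and mitosis with the high dose numbered 6 with the block, 1 higher and 5 lower, against 3, all lower.

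With no filter the all-gene counts were 62 for the low dose, 12 for prexasertib and 65 for the interaction, with DESeq2 6 for prexasertib and 72 for the interaction, and with the compared groups alone 2 for prexasertib. With a term for replicates 1 and 3 they were 73 for the low dose, 4 for prexasertib, 1427 in the combination, 909 and 829 for the combination against prexasertib and against the low dose, and 93 for the interaction. Within replicates 1 and 3 they were 2230 with the high dose against 3456, 1457 between the doses against 2767, and 5 for prexasertib. Within replicates 2 and 4 they were 2221 with the high dose, 4 with the low dose, 221 in the combination, 1588 between the doses, 104 and 143 for the combination against prexasertib and against the low dose, and 1 for the interaction. Leaving out 1 library gave 14 to 30 for the low dose, 0 to 2 for prexasertib and 309 to 474 for the combination against prexasertib.

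Within replicates 2 and 4, S phase calls were 9, against 14, with the high dose and 8, against 13, in the combination. Other pathway calls were 5, against 8, with the high dose and 1, against 6, in the combination. The interaction called 0 other pathway genes within either subset. Calls of G2 and mitosis with the high dose were 5 with DESeq2 or the term for replicates, each 1 higher and 4 lower. Within replicates 1 and 3 there was 1, lower. In the combination they were 3 with no filter or the compared groups alone, and 1 within replicates 2 and 4, against 6. Depth limits ATRIP most, which had as few as 60 counts in a library.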
